A study of Mus musculus with 16 samples.

Results

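Day 4 mesoderm cells (MES, sorted as T+CD24neg) were compared with the mesoderm progenitors (MP, sorted as T+CD24low) taken on the same day from the same medium. Each population was measured on 2 arrays, so that 4 of the 16 arrays of the series carry the comparison, and 18716 genes could be read, each from its brightest probe set with a single gene symbol. The cells are mouse embryonic stem cells of the line that the labels call E14.1, strain 129/Ola, and all groups carry a GFP reporter in 1 allele of T and a tagRFP reporter in 1 allele of Foxa2. Both day 4 T+ populations had been kept in endoderm differentiation medium to which Bmp4 at 7.5 ng/ml and activin A at 3 ng/ml had been added, on feeder cells that express Wnt3a, and were sorted on GFP, tagRFP and the surface protein CD24. The other groups used here are T+CD24low cells of day 2 (MP D2), F+CD24high (definitive endoderm, DE) and F+CD24low (endoderm progenitor, DEP) cells of day 4 from medium with 12 ng/ml activin A and no Bmp4, and undifferentiated embryonic stem cells (ES) on fibroblast feeders, with 2 arrays in each. All of these come from 1 reporter line in culture, and feeder cells are kept out of a sorted sample only by these gates. Because the cells were profiled in bulk, fewer cells of a type and less RNA per cell cannot be told apart.

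In the gastrulating mouse embryo, epiblast cells that enter the primitive streak switch on genes such as Mixl1 and Eomes and leave the epithelium by an epithelial to mesenchymal transition (EMT). In this transition the zinc finger protein Snail1 and its relatives repress E-cadherin and other genes of the epithelial junctions. Mesp1 marks the earliest mesoderm that leaves the streak, and the cells then take lateral, cardiac, blood, paraxial or allantoic fates according to where and when they left it. Hox genes are switched on in order of their position in the cluster, the later ones in the posterior streak. Primordial germ cells arise next to the posterior streak under Bmp4, and Prdm1 (Blimp1), Prdm14 and Tfap2c are the factors that specify them.

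The values are log2 levels after robust multichip averaging (RMA), and a difference is MES minus MP on that scale. Words such as rose and fell give the sign of a difference only, as no passage of cells from MP to MES was followed. A gene was called when its difference exceeded 1 in size at an adjusted p below 0.05 (limma over 32000 probe sets, Benjamini-Hochberg). On all 16 arrays the median level was between 7.42 and 7.49. The 2 MES arrays correlated at r = 0.992 over the probe sets kept and the 2 MP arrays at r = 0.991, and across the 2 populations r lay between 0.984 and 0.989. Cd24a, which encodes the protein of the gate, measured 11.04 and 11.12 on the MES arrays, against 12.45 and 12.33 on the MP arrays, so that the RNA followed the sort. Foxa2, the gene of the tagRFP reporter, measured 7.86 and 7.78 in MES and 7.71 and 8.05 in MP, and 10.41 and 10.33 in DE.

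Of the 18716 genes, 69 were higher in MES than in MP (0.369% of the genes tested) and 151 were lower (0.807%), 220 in all (1.18%). The median difference over all genes was 0.00, and 9344 genes had a positive and 9372 a negative difference. Both MES arrays lay above both MP arrays for 4219 genes (22.5%) and below them for 4223 (22.6%), shares against which the counts of non-overlapping genes given below are to be read. In limma 3027 of the 18716 genes had an unadjusted p under 0.05. The counts of such genes given below for single lists are to be read against that share.

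**Figure D1:**
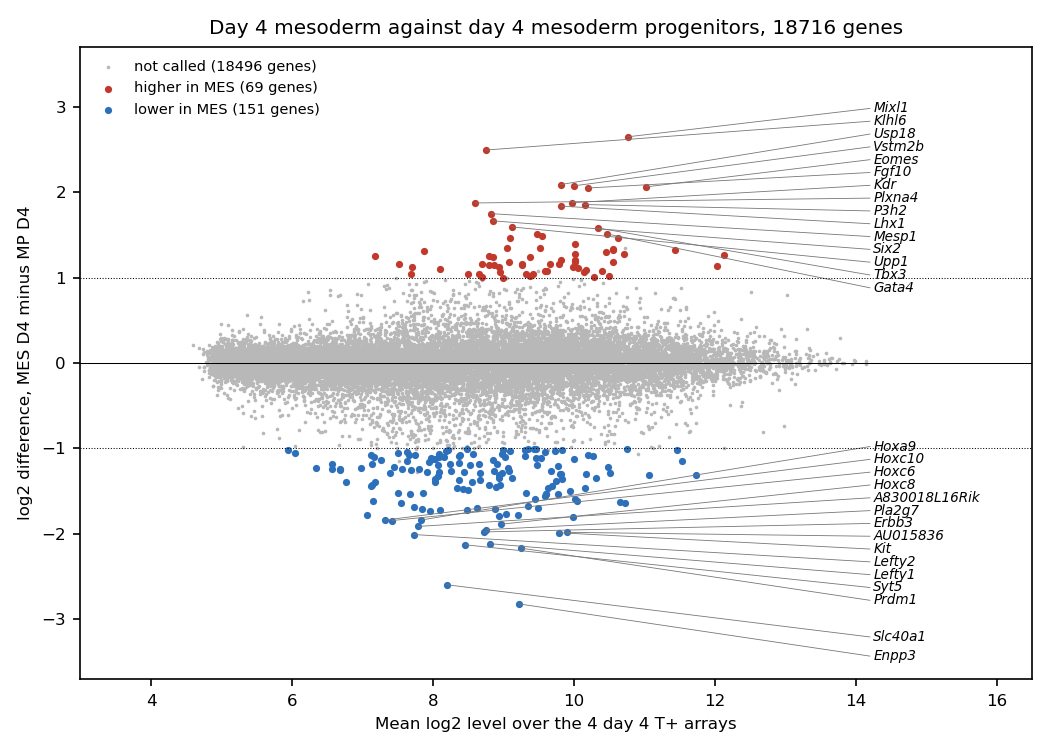
Difference between MES D4 and MP D4 (y axis, log2) against the mean level over the 4 day 4 T+ arrays (x axis, log2), 1 point per gene, with the calling threshold of 1 as dotted lines and the 15 highest and 15 lowest called genes named. The 151 genes lower in MES outnumber the 69 higher ones, and the largest differences are those of Enpp3 (-2.82) and Mixl1 (2.65).

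The highest difference was that of Mixl1, a homeobox gene of the primitive streak, which measured 12.002 and 12.17 on the MES arrays, against 9.38 and 9.49 on the MP arrays, a difference of 2.65 ± 0.17 (SE). Eomes, the T-box factor that acts with Mixl1 in streak cells, measured 12.05 and 12.06 in MES and 10.05 and 9.94 in MP and was higher by 2.06 (adjusted p = 2.66e-05). Lhx1, a LIM homeobox gene of the streak and its first mesoderm, measured 10.76 and 10.72 in MES and 9.05 and 8.75 in MP and was higher by 1.84. The MES arrays lay above the MP arrays for each of these 3 genes. The remaining called member of the 12 primitive streak genes was Lefty2, a secreted inhibitor of Nodal, which was lower in MES, a call lost without MES replicate 1 (adjusted p = 0.0525) or MP replicate 2 (adjusted p = 0.0564). The list had 3 higher and 1 lower member with a median difference of 0.45, against 0.00 over all genes. Wnt3, a ligand of the streak, differed by 0.57 and was not called, and 9 of the 12 had both MES arrays above both MP arrays.

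For Eomes, Mixl1 and Lhx1 the MP arrays of day 4 measured below those of day 2, and the MES arrays above both. Eomes measured 11.84 and 11.82 in MP of day 2, 10.05 and 9.94 in MP of day 4 and 12.05 and 12.06 in MES. Mixl1 measured 10.17 and 10.58 in MP of day 2 and Lhx1 9.44 and 9.40, in both cases above MP of day 4 and below MES. In ES cells Mixl1 measured 7.55 and 7.55 and Eomes 9.02 and 8.61. The same MP D4 arrays stand in both of these comparisons, so the levels are given side by side without a test.

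The EMT transcription factors were led by Mesp1 and Snai1. Mesp1 measured 9.66 and 9.74 on the MES arrays, against 8.02 and 7.89 on the MP arrays, a difference of 1.75 ± 0.11 (SE) with an adjusted p of 1.61e-05. Snai1, which encodes Snail1, measured 10.77 and 10.66 in MES and 9.45 and 9.20 in MP and was higher by 1.39 (95% interval 1.05 to 1.73, adjusted p = 0.000363). These were the 2 called members of the 8 on the list, whose median difference was 0.56. Zeb2 (0.86 ± 0.21 (SE), adjusted p = 0.046), Zeb1 (0.57, adjusted p = 0.297), Twist1 (0.55, adjusted p = 0.489) and Mesp2 (0.54, adjusted p = 0.141) had both MES arrays above both MP arrays and were not called. Snai2, which encodes Slug, measured 7.70 and 8.01 in MES and 8.09 and 7.89 in MP, and its arrays overlapped.

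Among the epithelial genes, all those called were lower in MES. Of 29 junction, keratin and associated genes measured, 9 were called lower and 0 higher, and 28 had both MES arrays below both MP arrays, the exception being Lsr. Their median difference was -0.79. Cdh1, which encodes E-cadherin, measured 10.36 and 10.46 on the MES arrays, against 11.76 and 11.68 on the MP arrays, a decrease of 1.31 (SE 0.09, adjusted p = 2.51e-05). St14, the membrane serine protease matriptase, measured 8.66 and 8.64 in MES and 10.30 and 10.40 in MP and fell by 1.70. The tight junction genes Cldn7 and Cldn6 fell by 1.69 and 1.54, Cldn7 with 7.70 and 7.85 in MES and 9.45 and 9.48 in MP and Cldn6 with 8.94 and 8.73 in MES and 10.39 and 10.35 in MP. Ocln, which encodes occludin, measured 6.45 and 6.36 in MES and 7.76 and 7.93 in MP. Epcam, an epithelial adhesion molecule, measured 8.95 and 9.35 in MES and 10.43 and 10.58 in MP and fell by 1.35 (adjusted p = 0.000485). The other called members, Rab25 (-1.20), Ap1m2 (-1.16) and Dsc2 (-1.13), serve epithelial vesicle traffic and, for Dsc2, desmosomes. The keratin genes Krt8 and Krt18 differed by -0.07 and -0.14 and were not called.

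Among 9 regulators of epithelial identity, 3 were lower and 0 higher. Esrp1, a splicing factor of epithelial cells, measured 9.83 and 9.99 on the MES arrays, against 11.43 and 11.67 on the MP arrays, a difference of -1.64 ± 0.10 (SE) (adjusted p = 1.44e-05). Grhl3, a grainyhead factor of surface epithelia, measured 8.11 and 8.36 in MES and 9.60 and 9.73 in MP and fell by 1.43. Elf3, an epithelial Ets factor, measured 7.88 and 8.19 in MES and 8.93 and 9.27 in MP with a difference of -1.07 (adjusted p = 0.032). Among the called members of both lists, Elf3 and Dsc2 depended on single arrays. Elf3 lost its call without MES replicate 1 (adjusted p = 0.209), MES replicate 2 (adjusted p = 0.0843), MP replicate 1 (adjusted p = 0.054) or MP replicate 2 (adjusted p = 0.243), and Dsc2 without MES replicate 1 (adjusted p = 0.149), MES replicate 2 (adjusted p = 0.0818), MP replicate 1 (adjusted p = 0.0827) or MP replicate 2 (adjusted p = 0.129).

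**Figure D2:**
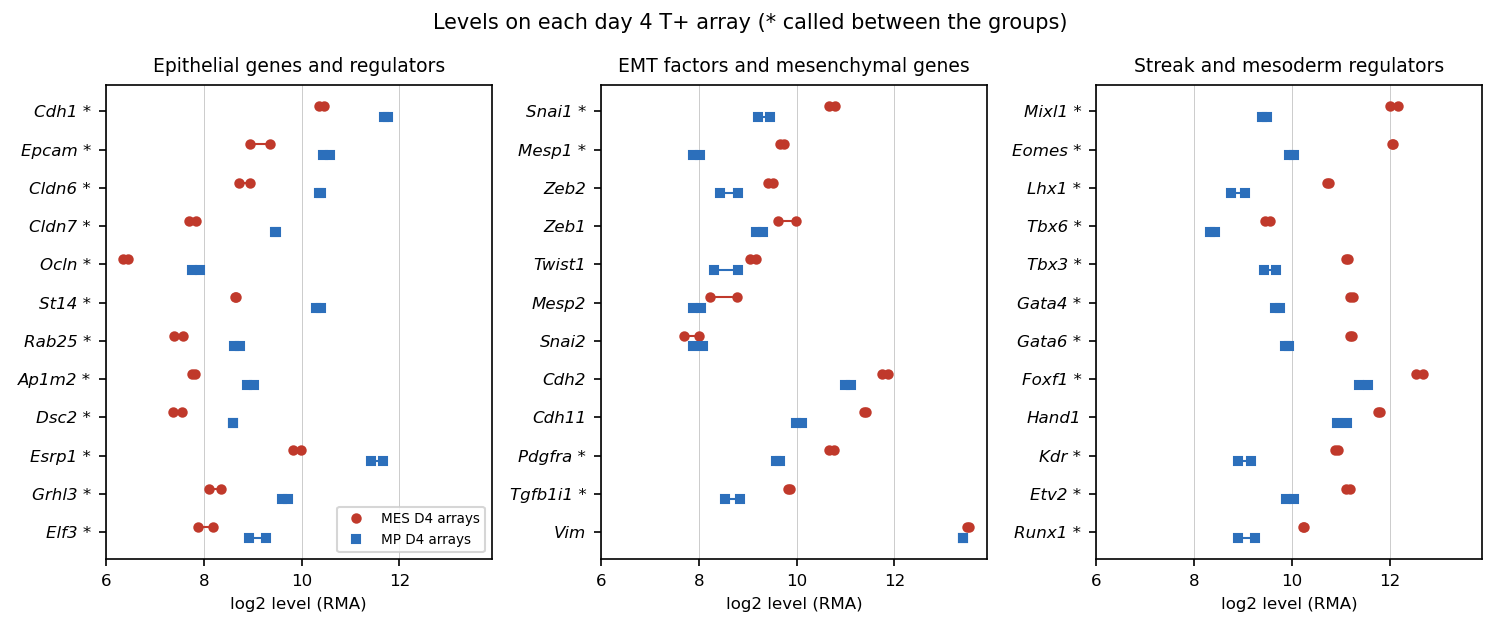
Level on each of the 4 day 4 T+ arrays (x axis, log2, RMA) for epithelial genes, EMT factors with mesenchymal genes, and streak with mesoderm regulators, as circles for the 2 MES D4 arrays and squares for the 2 MP D4 arrays joined by a line, with an asterisk for called genes. All 12 epithelial genes shown lie lower in MES, Snai1 (10.77 and 10.66 in MES and 9.45 and 9.20 in MP) and Mesp1 lie higher, and the arrays of Snai2 overlap.

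The bases upstream of the start site were read for the called epithelial genes, because Snail1 and the Zeb proteins bind the E-box CAGGTG and can repress genes through it. Read on the other strand the same box is CACCTG, and a match on either strand was counted. The sequences are RefSeq starts on GRCm38.p6, 250 bases each, 5′ to 3′ on the strand of the gene and ending at the base before the start, with the E-boxes in capitals. Shown are the 5 genes Epcam (chr17:87635729-87635978, + strand), Cldn6 (chr17:23679115-23679364, + strand), Cldn7 (chr11:69965171-69965420, + strand, the downstream of its 2 starts), Rab25 (chr3:88548280-88548529, - strand) and Ap1m2 (chr9:21312334-21312583, - strand), which hold 1 to 4 sites.
Epcam: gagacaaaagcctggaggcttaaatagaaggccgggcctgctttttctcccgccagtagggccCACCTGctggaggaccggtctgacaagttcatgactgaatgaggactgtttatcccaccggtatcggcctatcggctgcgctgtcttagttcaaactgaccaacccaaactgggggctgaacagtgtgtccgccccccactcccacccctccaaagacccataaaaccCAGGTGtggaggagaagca
Cldn6: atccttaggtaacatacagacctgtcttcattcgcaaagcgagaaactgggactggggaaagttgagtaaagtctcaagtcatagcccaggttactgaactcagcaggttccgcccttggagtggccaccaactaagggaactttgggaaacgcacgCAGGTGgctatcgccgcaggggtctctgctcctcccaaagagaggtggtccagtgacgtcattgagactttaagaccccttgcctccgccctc
Cldn7: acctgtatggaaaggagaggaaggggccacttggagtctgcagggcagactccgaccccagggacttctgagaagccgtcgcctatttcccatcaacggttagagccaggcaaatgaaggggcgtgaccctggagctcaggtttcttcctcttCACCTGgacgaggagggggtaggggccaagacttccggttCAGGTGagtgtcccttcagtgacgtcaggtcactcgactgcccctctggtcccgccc
Rab25: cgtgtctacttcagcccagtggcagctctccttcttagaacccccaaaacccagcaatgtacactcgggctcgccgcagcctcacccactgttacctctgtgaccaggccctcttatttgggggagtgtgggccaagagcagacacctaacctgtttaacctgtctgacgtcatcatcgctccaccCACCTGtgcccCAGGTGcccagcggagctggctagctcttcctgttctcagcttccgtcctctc
Ap1m2: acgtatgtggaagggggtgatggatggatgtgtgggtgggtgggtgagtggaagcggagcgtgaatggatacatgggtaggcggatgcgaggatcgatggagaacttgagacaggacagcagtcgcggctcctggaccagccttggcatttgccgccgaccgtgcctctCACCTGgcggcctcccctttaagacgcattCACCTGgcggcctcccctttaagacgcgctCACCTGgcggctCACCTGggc

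In Epcam the sites began 187 and 19 bases before the start, in Rab25 64 and 53, and in Ap1m2 81, 51, 21 and 9. Of the 12 epithelial genes lower in MES, 8 had a promoter in the table used, and 8 of these held the E-box at 1 or more of their starts (the 5 shown, Ocln, Grhl3 and Elf3). Cdh1, St14, Esrp1 and Dsc2 had no entry there, so their upstream bases could not be read. Of 26 epithelial genes that were not called, 17 had a promoter and 9 held the E-box (52.9%). Over all genes of the promoter table the share was 19.4%, over the genes measured here 19.7%, over all genes lower in MES 39.4% (43 of 109) and over all genes higher in MES 13.3% (6 of 45). The upstream start of Cldn7 and a second start of Ocln held none. A match describes these letters only, and no binding was measured on the arrays.

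The mesenchymal genes were called in both directions. Of 16 measured, 2 were higher and 1 lower, against 0.369% and 0.807% over all genes. Their median difference was 0.57, and 13 members had both MES arrays above both MP arrays. Pdgfra, the receptor for platelet-derived growth factor on nascent mesoderm, measured 10.67 and 10.77 on the MES arrays, against 9.59 and 9.66 on the MP arrays, a difference of 1.09 ± 0.25 (SE) (adjusted p = 0.0373). Its call was lost without MES replicate 1 (adjusted p = 0.141), MES replicate 2 (adjusted p = 0.205), MP replicate 1 (adjusted p = 0.133) or MP replicate 2 (adjusted p = 0.163). Tgfb1i1 (Hic-5), a focal adhesion protein, was higher by 1.15 and lost its call without MP replicate 2 (difference 1.00). Cdh2, which encodes N-cadherin, measured 11.75 and 11.87 in MES and 11.11 and 10.98 in MP, a difference of 0.76 that stayed under the threshold of 1 (adjusted p = 0.0242). Vim (vimentin) measured 13.48 and 13.53 in MES and 13.40 and 13.41 in MP. Cdh11, singled out after its values were seen, had the wider difference of 1.35 ± 0.43 (SE) but an adjusted p of 0.144 with the spread pooled over all groups. With the 6 T+ arrays alone its adjusted p was 0.00417 and with the 4 day 4 T+ arrays 0.0226. Acta2, smooth muscle actin, was the lower member with 8.47 and 8.43 on the MES arrays, against 9.43 and 9.59 on the MP arrays and a difference of -1.06, and it lost its call without MP replicate 2 (difference -0.99).

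Genes of lateral and cardiac mesoderm were the list with the most genes higher in MES. Of 22 measured, 8 were called higher and 0 lower, the median difference was 0.78 and 19 had both MES arrays above both MP arrays. Kdr, which encodes the Vegf receptor Flk1 on vascular progenitors, measured 10.88 and 10.95 on the MES arrays, against 9.17 and 8.91 on the MP arrays and was higher by 1.88 (SE 0.23, adjusted p = 0.000733). Tbx3, a T-box factor of early cardiac mesoderm, measured 11.16 and 11.11 in MES and 9.68 and 9.43 in MP (difference 1.58, adjusted p = 0.0123). The zinc finger factors Gata4 and Gata6, which act in cardiac mesoderm and in endoderm, were higher by 1.51 and 1.32. Gata4 measured 11.26 and 11.19 in MES and 9.77 and 9.66 in MP and Gata6 11.20 and 11.23 in MES and 9.93 and 9.85 in MP. The T-box gene Tbx20 differed by 1.27. Foxf1, a forkhead gene of lateral and extra-embryonic mesoderm, measured 12.53 and 12.68 in MES and 11.55 and 11.38 in MP and was higher by 1.14. Hand1, a basic helix-loop-helix gene of the same territory, measured 11.77 and 11.80 in MES and 11.12 and 10.92 in MP, with a difference of 0.77 under the threshold of 1 (adjusted p = 0.00264). Tbx5, a gene of the first heart field, measured 7.39 and 7.38 in MES and 6.72 and 6.45 in MP (0.80, adjusted p = 0.00381), and Nkx2-5 differed by -0.02. Tbx3 lost its call without MES replicate 1 (adjusted p = 0.0839), MES replicate 2 (adjusted p = 0.0793) or MP replicate 2 (adjusted p = 0.116), and Tbx20 without MES replicate 1 (adjusted p = 0.106), MES replicate 2 (adjusted p = 0.126) or MP replicate 2 (adjusted p = 0.176).

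Among vessel and blood progenitor genes, a receptor and some transcription factors were higher. Etv2, the Ets factor that starts this lineage, measured 11.10 and 11.19 on the MES arrays, against 9.88 and 10.04 on the MP arrays, a difference of 1.19 ± 0.09 (SE) (adjusted p = 3.64e-05). Runx1, needed for blood stem cell formation, measured 10.24 and 10.24 in MES and 9.25 and 8.90 in MP and was higher by 1.16, without a call when MP replicate 2 (difference 0.99) was left out. Pecam1, an endothelial adhesion molecule that pluripotent cells also carry, measured 7.48 and 7.42 on the MES arrays, against 8.499 and 8.63 on the MP arrays and fell by 1.12. With Kdr the list of 31 had 3 higher and 1 lower member and a median of 0.19. The embryonic globins Hbb-bh1 and Hba-x differed by -0.04 and -0.09. Of 14 genes of cardiac muscle 0 were called by limma, and 2 had an unadjusted p under 0.05.

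In the paraxial list Tbx6, a T-box gene of presomitic mesoderm, measured 9.55 and 9.45 on the MES arrays, against 8.44 and 8.32 on the MP arrays and was higher by 1.13 (adjusted p = 2.72e-05). Its relative in function Msgn1 measured 9.12 and 9.43 in MES and 8.48 and 8.70 in MP and was not called (0.68). Cdx2, a caudal homeobox gene of the posterior streak and of trophoblast, measured 9.44 and 9.61 in MES and 10.84 and 10.79 in MP and 8.20 and 8.15 in MP of day 2, and was 1.30 lower in MES than in MP of day 4 (adjusted p = 2.71e-05). These were the 2 called genes among 17 measured. Six2, a homeobox gene known from the kidney and head mesenchyme and outside these lists, measured 9.69 and 9.68 in MES and 8.002 and 8.04 in MP and was higher by 1.66.

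**Figure D3:**
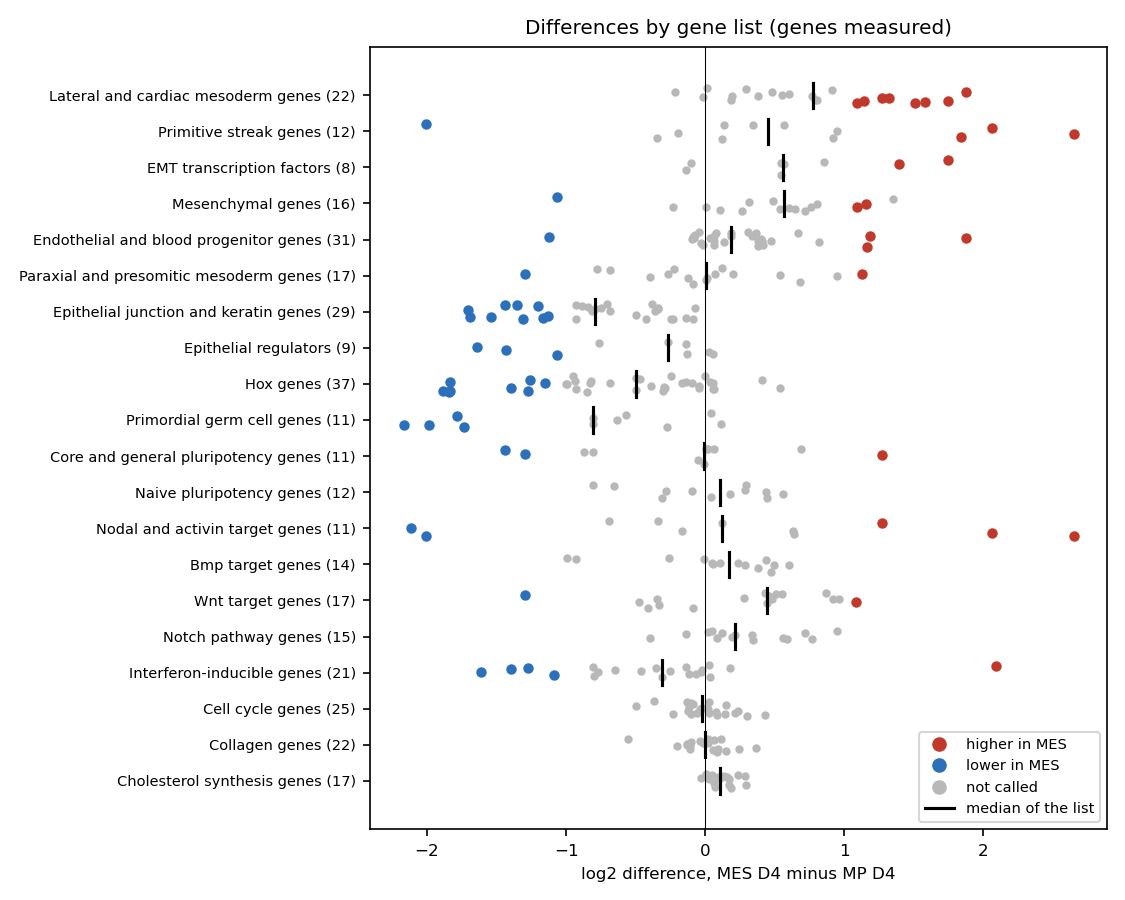
Difference between MES D4 and MP D4 (x axis, log2) for the measured members of 20 gene lists (rows, number of genes in parentheses), 1 point per gene with called genes in colour and the list's median as a bar. Lateral and cardiac genes lie to the right (median 0.78), epithelial junction and germ cell genes to the left (medians -0.79 and -0.80), and cell cycle, collagen and cholesterol genes around 0 with no call.

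Pluripotency genes split. Sox2 measured 8.88 and 9.07 on the MES arrays, against 10.33 and 10.49 on the MP arrays, a difference of -1.44 ± 0.15 (SE) (adjusted p = 0.000239). Utf1, a chromatin factor of pluripotent cells, fell by 1.30, with 9.12 and 9.20 in MES and 10.25 and 10.67 in MP, and lost its call without MES replicate 1 (adjusted p = 0.107), MES replicate 2 (adjusted p = 0.0886) or MP replicate 2 (adjusted p = 0.161). Tdgf1 (Cripto), the coreceptor for Nodal, went the other way with 12.84 and 12.69 on the MES arrays, against 11.66 and 11.34 on the MP arrays, a difference of 1.27 ± 0.14 (SE) (adjusted p = 0.00032), and it measured 13.03 and 13.04 in MP of day 2. Pou5f1, which encodes Oct4, measured 11.24 and 11.22 in MES and 11.94 and 12.13 in MP and was not called (-0.80, adjusted p = 0.126). Nanog averaged 10.91 ± 0.12 in MES and 11.79 ± 0.09 in MP (SD, n = 2 arrays each) and had a difference of -0.87, under the threshold of 1 (adjusted p = 0.00181). In ES cells Pou5f1 measured 12.47 and 12.59 and Nanog 12.01 and 12.16. The list of 11 had 1 higher and 2 lower members with a median of -0.01. Of 12 genes of naive pluripotency 0 were called by limma, and 2 had an unadjusted p under 0.05. Enpp3, a surface phosphodiesterase that had been placed with the epiblast genes, had the largest difference of all called genes, -2.82, with 7.59 and 8.03 on the MES arrays, against 10.47 and 10.79 on the MP arrays and 12.38 and 12.43 in ES cells.

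The factors that specify primordial germ cells were lower in MES. Prdm1, the repressor Blimp1, measured 7.97 and 8.35 on the MES arrays, against 10.29 and 10.37 on the MP arrays, a difference of -2.17 ± 0.16 (SE) (adjusted p = 2.66e-05). Kit, the receptor for stem cell factor, measured 8.83 and 8.76 in MES and 10.82 and 10.74 in MP and fell by 1.99. Tfap2c measured 8.19 and 8.45 in MES and 10.06 and 10.14 in MP and fell by 1.78, and its family member Tfap2a, outside the list and chosen after its values were seen, fell by 1.73. Prdm14 measured 6.99 and 7.21 on the MES arrays, against 8.51 and 9.15 on the MP arrays, a difference of -1.73 (adjusted p = 0.000334). In MP of day 2 Prdm1 measured 8.94 and 9.39, Kit 8.56 and 8.51 and Prdm14 7.25 and 7.28, each under both MP arrays of day 4. Of 11 members 4 were lower and 0 higher, 9 had both MES arrays below both MP arrays, and the median difference was -0.80. Dppa3 (Stella), a marker of established germ cells, measured 6.16 and 5.84 in MES and 6.72 and 6.89 in MP, and Nanos3 7.61 and 7.65 in MES and 8.14 and 8.25 in MP, and neither was called (-0.80 and -0.57). The later germ cell genes Ddx4 and Dazl differed by 0.04 and 0.11.

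Among the Hox genes, all those called were lower in MES. Of 37 measured, 8 were called lower and 0 higher, 26 had both MES arrays below both MP arrays, and the median difference was -0.50. Hoxc8 measured 8.01 and 8.05 on the MES arrays, against 10.12 and 9.71 on the MP arrays, a difference of -1.89 ± 0.28 (SE). Hoxa9 measured 7.04 and 6.79 in MES and 8.81 and 8.69 in MP, Hoxc6 6.42 and 6.58 in MES and 8.46 and 8.22 in MP and Hoxc10 6.43 and 6.36 in MES and 8.32 and 8.15 in MP, and each fell by 1.84. The lower members also included 4 genes of the Hoxd cluster, Hoxd10 (-1.40), Hoxd11 (-1.28), Hoxd8 (-1.26) and Hoxd4 (-1.15). The call of Hoxd8 was lost by limma with the 6 T+ arrays alone (adjusted p = 0.106) and with the 4 day 4 T+ arrays (adjusted p = 0.197). It was also lost without MES replicate 1 (difference -0.95) or MP replicate 2 (difference -0.85). Hoxd4 lost its call without MP replicate 1 (difference -0.90).

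By paralogue number, 6 of the 12 measured genes of paralogues 8 to 11 were called lower, and 12 of 12 had both MES arrays below both MP arrays, with a median of -1.13. Of the 12 genes of paralogues 4 to 7, 2 were called (Hoxc6 and Hoxd4) and the median was -0.66. Paralogues 1 to 3 had 0 calls among 7 genes with a median of -0.09, and paralogues 12 and 13 had 0 among 6 with a median of -0.02. The first genes of the Hoxb cluster, Hoxb1 and Hoxb2, had positive differences of 0.54 and 0.41 that were not called. In MP of day 2 Hoxc8 measured 6.69 and 6.56, Hoxa9 6.498 and 6.73 and Hoxc10 5.98 and 6.16, in each case below both day 4 populations. ES cells on feeders did not share these low levels for Hoxc8, which measured 9.499 and 8.66 there, above both MES arrays. Hoxc6 measured 7.09 and 6.64 in ES cells, also above both MES arrays. Hoxa9 measured 6.685 and 6.76 in ES cells, under both MES arrays, and Hoxc10 6.75 and 6.33, overlapping with MES. Neighbouring Hox genes can share transcripts, and the arrays do not tell such transcripts apart.

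**Figure D4:**
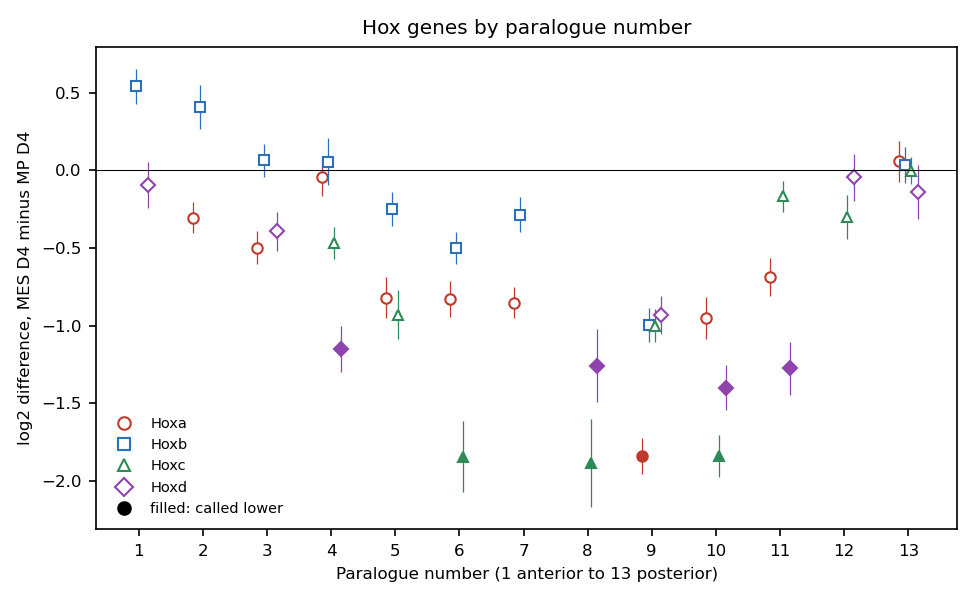
Difference between MES D4 and MP D4 (y axis, log2, with 1 SE from limma) for 37 Hox genes against paralogue number (x axis), with 1 symbol per cluster and filled symbols for called genes. The median difference is most negative at paralogues 8 to 11 (-1.13), where Hoxc8 is the lowest gene at -1.89, and lies near 0 at 12 and 13 (-0.02).

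Signalling genes showed opposite movements within the Nodal pathway. The secreted Nodal inhibitors Lefty1 and Lefty2 were lower in MES, Lefty1 with 7.70 and 7.80 on the MES arrays, against 9.76 and 9.97 on the MP arrays and Lefty2 with 6.36 and 7.10 on the MES arrays, against 8.54 and 8.94 on the MP arrays. The differences were -2.11 and -2.01 (adjusted p = 0.000873 and 0.00429). Lefty1 and Lefty2 are near-identical neighbours whose probes may share signal, and Lefty2 lost its call without MES replicate 1 (adjusted p = 0.0525) or MP replicate 2 (adjusted p = 0.0564). Nodal itself differed by -0.69 and was not called, while its targets Mixl1 and Eomes and its coreceptor gene Tdgf1 were higher as given above. The list of 11 Nodal and activin targets itself split, with 3 higher and 2 lower members. Its lowest difference was that of Lefty1, which is thus both an inhibitor and a listed target.

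Fgf10, a growth factor of mesenchyme that signals to epithelia, measured 11.24 and 11.20 on the MES arrays, against 9.36 and 8.98 on the MP arrays and was higher by 2.05 (SE 0.17, adjusted p = 4.9e-05). Fgf15 measured 10.56 and 10.54 in MES and 9.54 and 9.31 in MP and was higher by 1.12. Of 21 genes of the Fgf pathway these were the 2 called, and the response genes Dusp6, Spry4, Spry1 and Etv5 had negative differences of -0.70, -0.59, -0.56 and -0.44 that were not called. Bmp2 measured 10.61 and 10.63 in MES and 9.48 and 9.36 in MP, against 6.66 and 6.71 in MP of day 2, and was higher by 1.20 than in MP of day 4. Bmper, a secreted modulator of Bmp, was higher by 1.16 and lost its call without MP replicate 2 (difference 0.96). Of 14 Bmp target genes 0 were called by limma and 5 had an unadjusted p under 0.05, with differences between -0.99 and 0.61. The lowest members, singled out after their values were seen, were Id2, with 11.56 and 11.72 in MES and 12.54 and 12.72 in MP (-0.99, adjusted p = 0.0626), and Dlx5, with 6.89 and 6.43 in MES and 7.74 and 7.44 in MP (-0.93, adjusted p = 0.00483). Dlx5 was called lower without MES replicate 1 (difference -1.16) or MP replicate 2 (-1.08). Id1 measured 11.004 and 10.96 in MES and 10.89 and 10.87 in MP.

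Of 17 Wnt targets 1 was higher and 1 lower (Cdx2), and 11 had both MES arrays above both MP arrays, with a median of 0.44. By limma 16 of the 17 had an unadjusted p under 0.05. The differences of the 17 were positive for 11 and negative for 6. The higher one was Apcdd1, an inhibitor of Wnt signalling at the membrane, with 10.24 and 10.08 in MES and 9.17 and 8.98 in MP, whose call was lost without MP replicate 2 (difference 0.99). Outside the list, and chosen after their values were seen, the Wnt receptor gene Fzd7 and the growth regulator Myc were higher by 1.46 and 1.33. Of 24 Wnt ligands and inhibitors and 15 Notch pathway genes 0 were called by limma, and 7 of each had an unadjusted p under 0.05. Erbb3, the neuregulin receptor, was lower by 1.98 with 7.66 and 7.80 in MES and 9.70 and 9.72 in MP. Cxcr4, the chemokine receptor of migrating mesoderm and endoderm, measured 10.11 and 10.15 on the MES arrays, against 8.999 and 9.09 on the MP arrays and was higher by 1.08.

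The adhesion and guidance genes changed in both directions. Plxna4 and Plxna2, plexins that receive semaphorins, were higher by 1.87 and 1.35, with 9.50 and 9.57 in MES and 7.83 and 7.49 in MP for Plxna4. Efna3 (ephrin-A3) was higher by 1.19 and the ephrin receptor Epha2 lower by 1.10. Sema4d was lower by 1.08. These 3 calls rested on single arrays. Efna3 lost it without MES replicate 1 (adjusted p = 0.0582), MES replicate 2 (adjusted p = 0.0997), MP replicate 1 (adjusted p = 0.0767) or MP replicate 2 (adjusted p = 0.0504), Epha2 without MES replicate 1 (adjusted p = 0.0573) or MP replicate 2 (adjusted p = 0.0508), and Sema4d without MES replicate 2 (adjusted p = 0.0556) or MP replicate 2 (adjusted p = 0.061). A second probe set of Sema4d differed by 0.01. The guidance list of 32 had 2 higher and 2 lower members, without Plxna4, which was not on it.

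Among the cadherins, the protocadherin Pcdh7 was higher by 1.51 with 10.32 and 10.14 in MES and 8.93 and 8.51 in MP, opposite to Cdh1. Itga9, an integrin for tenascin, was higher by 1.15 and Itgb8, which activates latent Tgf-beta, lower by 1.52, with 9.36 and 9.39 in MES and 8.23 and 8.21 in MP for Itga9 and 8.44 and 8.68 in MES and 10.32 and 9.83 in MP for Itgb8. The basement membrane genes Fras1 and Frem2 were lower by 1.10 and 1.02. Fras1 was not called without MP replicate 1 (difference -0.93), nor Frem2 without MES replicate 1 (difference -0.97) or MP replicate 1 (difference -0.88). P3h2, which hydroxylates prolines of basement membrane collagens, was higher by 1.86, and it lost its call without MES replicate 1 (adjusted p = 0.0666), MES replicate 2 (adjusted p = 0.0569) or MP replicate 2 (adjusted p = 0.0805). Of 22 collagen genes 0 were called by limma, and 2 had an unadjusted p under 0.05. Adam19, a membrane metalloprotease, was the called member among 17 proteases and inhibitors, at 1.00, and was not called without MES replicate 2 (difference 0.99) or MP replicate 2 (difference 0.96).

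Interferon-inducible genes also split. Usp18, which removes Isg15 and dampens interferon signalling, was higher with 10.84 and 10.88 on the MES arrays, against 8.68 and 8.86 on the MP arrays, a difference of 2.09 ± 0.30 (SE) (adjusted p = 0.00193). Parp12, Rtp4, Parp14 and Oasl2 were lower by 1.61, 1.39, 1.27 and 1.09. Rtp4 measured 6.14 and 6.01 in MES and 7.27 and 7.66 in MP and Parp12 8.94 and 9.54 in MES and 10.57 and 11.12 in MP. Of 21 genes 1 was higher and 4 lower, 13 had both MES arrays below both MP arrays, and the median was -0.31. Parp12 lost its call without MES replicate 1 (adjusted p = 0.0602) or MP replicate 2 (adjusted p = 0.0672), Parp14 without MES replicate 1 (adjusted p = 0.111), MP replicate 1 (adjusted p = 0.076) or MP replicate 2 (adjusted p = 0.0576) and Oasl2 without MES replicate 1 (difference -0.89).

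The remaining genes at the ends of the ranking have varied roles. Klhl6, a ubiquitin ligase adaptor known from B cells, measured 9.97 and 10.02 on the MES arrays, against 7.53 and 7.48 on the MP arrays and 6.42 and 6.62 in MP of day 2, a difference of 2.49 ± 0.12 (SE) (adjusted p = 4.26e-06). Vstm2b, a transmembrane immunoglobulin-domain gene, measured 11.10 and 10.98 in MES and 9.03 and 8.90 in MP and was higher by 2.07. Upp1, uridine phosphorylase, was higher by 1.59. Slc40a1, the iron exporter ferroportin, measured 6.88 and 6.91 on the MES arrays, against 9.34 and 9.65 on the MP arrays and fell by 2.60 (adjusted p = 2.66e-05). Syt5, a synaptotagmin of vesicle release, fell by 2.13 with 7.34 and 7.45 in MES and 9.29 and 9.76 in MP. Pla2g7, a secreted phospholipase, measured 7.69 and 7.87 in MES and 9.42 and 10.04 in MP, a decrease of 1.95. AU015836 and A830018L16Rik, which have no gene name in the annotation, fell by 1.98 and 1.91.

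Lists of general cell functions held few calls. Of 25 cell cycle genes 0 were called by limma and 3 had an unadjusted p under 0.05, with differences between -0.50 and 0.43. Cholesterol synthesis had 0 calls among 17 genes by limma and 1 unadjusted p under 0.05. Of 21 genes of glycolysis and hypoxia Pfkp was higher, by 1.00, just past the threshold, and its call was lost without MES replicate 1 (adjusted p = 0.0913), MES replicate 2 (adjusted p = 0.0872), MP replicate 1 (adjusted p = 0.0623) or MP replicate 2 (adjusted p = 0.103). Igfbp3 was lower by 1.02 among 12 genes of Igf signalling, a call lost without MES replicate 1 (adjusted p = 0.0684), MES replicate 2 (adjusted p = 0.0539) or MP replicate 1 (adjusted p = 0.0557). DNA methyltransferases and Tet enzymes had 0 calls by limma among 8 genes, none of them with an unadjusted p under 0.05.

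Markers of other cell types were read on the same arrays. For fibroblasts, the feeder cells of the culture, 1 of 20 genes was called (Acta2, lower, a call lost without MP replicate 2 (difference -0.99)), and the median level of the list lay between 7.75 and 7.85 on the MES arrays and between 7.83 and 7.84 on the MP arrays. Of the defining fibroblast genes, Dcn measured 6.10 and 5.995 in MES and 6.12 and 5.996 in MP, against 10.80 and 11.18 in ES cells on feeders. Postn measured 5.15 and 5.41 in MES and 5.16 and 5.20 in MP, against 10.36 and 10.18 in ES cells. The levels of Col1a1, Col1a2, Col3a1, Thy1 and Pdgfrb, also chosen as defining, are not given singly. None of them was called between MES and MP, a comparison that does not say how much feeder RNA either population held. The median level of the list lay above the levels of Dcn and Postn on each of these arrays. Lum was not measured. For definitive endoderm, 1 of 12 was higher (Cxcr4) and 2 were lower (Trh and Rbm47, both lost when MES replicate 1 or MP replicate 2 was left out, with differences between -0.98 and -0.73). The endoderm list had median levels of 7.77 to 7.88 on the MES arrays and 7.64 to 7.88 on the MP arrays. Of its defining genes, Sox17 measured 6.96 and 6.79 in MES and 7.03 and 7.21 in MP, against 10.78 and 10.97 in DE. Cer1 measured 6.501 and 6.09 in MES and 6.27 and 6.66 in MP, against 13.11 and 13.13 in DE. Foxa2 is given above, and Hhex was not called. Visceral endoderm and neural ectoderm had 0 calls by limma among 12 and 10 genes, with 1 unadjusted p under 0.05 in each. The trophoblast list had 2 lower members among 8, Cdx2 and Tfap2c, which also stand among the germ cell and posterior genes above. Of its defining genes, Elf5 measured 6.72 and 6.08 in MES and 6.57 and 6.38 in MP. Krt7 measured 7.40 and 7.40 in MES and 7.54 and 7.19 in MP. Ascl2 was not called and Prl3d1 was not measured. The median level of the trophoblast list was 8.02 to 8.29 on the MES arrays and 8.06 to 8.07 on the MP arrays. The part of other cell types in the differences was not tested. Of the mesoderm genes that define the labelled type, Hand1, Foxf1, Mesp1, Pdgfra, Kdr and Tbx6 were higher on both MES arrays and both MP arrays than on the ES arrays. Msgn1 had also been chosen as a defining gene, and its level in ES cells is not given here.

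The step into mesoderm was set against the step into endoderm of the same day, DE minus DEP (F+CD24high minus F+CD24low), which shares no array with it. The sort on CD24 ran the other way there, as DE cells had more and MES cells less CD24 than their progenitors, and the medium differed. In the endoderm step 567 genes were higher (3.03%) and 623 lower (3.33%). Of the 69 genes higher in MES, 31 were also higher in DE (44.9% of the mesoderm list and 5.47% of the endoderm list) and 4 were lower. Of the 151 lower in MES, 28 were also lower in DE (18.5% and 4.49%) and 22 were higher (14.6% and 3.88%). Over all 18716 genes, which are not independent, the 2 steps correlated at r = 0.07.

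The difference between the steps was tested in the same model, and 1383 genes were called (7.39%). Of the 220 genes called in the mesoderm step, 128 were among them and 92 were not. The 4 arrays of the mesoderm step enter both contrasts, so a gene called in it is more likely to be called here. Prdm1 differed most among these genes, as it was lower in MES than in MP and measured 10.51 and 10.63 in DE and 8.09 and 8.28 in DEP, a difference of steps of -4.56 ± 0.22 (SE) (adjusted p = 2.44e-06). Slc40a1 (-4.12), Kit (-3.89), Tmem184a (-3.81) and Gdpd1 (-3.78) had the same pattern of a fall in the mesoderm step and a rise in the endoderm step. In the other direction Tdgf1 measured 10.997 and 11.01 in DE and 13.03 and 12.89 in DEP, and its steps differed by 3.23 ± 0.19 (SE) (adjusted p = 4.79e-06). Klhl6 (2.41) rose in the mesoderm step alone, with 6.01 and 5.95 in DE and 5.82 and 5.98 in DEP. Sox2 fell in both steps but by 1.44 in MES and with 7.01 and 7.37 in DE and 11.12 and 10.93 in DEP, so that the steps differed by 2.40. Foxi3 (2.41) fell in both steps likewise, and Cap2 (2.74) was higher in MES and lower in DE.

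The epithelial genes separated the steps. All 9 called junction genes and all 3 called regulators were lower in the mesoderm step than in the endoderm step by this test. They had been picked for a fall in MES on arrays that enter the test, which favours that sign in advance. Of all 29 junction genes, 24 were called lower in the difference of steps, against 747 of the 18716 genes. In the endoderm step alone 5 of the 29 were called higher and 0 lower. Cdh1 measured 12.97 and 13.12 in DE and 12.66 and 12.52 in DEP, and its steps differed by -1.77 ± 0.13 (SE) (adjusted p = 9.31e-06). Grhl3 differed by -3.49, with 10.71 and 10.69 in DE and 8.51 and 8.76 in DEP. Snai1 measured 8.33 and 8.14 in DE and 8.26 and 8.47 in DEP, a difference of steps of 1.52 ± 0.22 (SE) (adjusted p = 0.000759). The 8 called Hox genes, picked in the same way, were all called lower in the difference of steps as well. In the endoderm step alone 0 of the 37 Hox genes were called, with a median of 0.06.

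Other genes rose in both steps, and their difference was not called. Fgf10 measured 11.37 and 11.24 in DE and 8.94 and 9.08 in DEP, and the difference of its steps was -0.25 with a 95% interval of -0.77 to 0.27. For Lhx1 it was -0.29 (-0.77 to 0.19), for Plxna4 -0.09 (-0.51 to 0.33) and for P3h2 -0.41 with a wide interval (-1.43 to 0.61). For Eomes it was 0.86 (0.41 to 1.31), under the threshold of 1 but with an interval that excludes 0. A missing call does not show that the steps are equal. Among the genes lower in MES, A830018L16Rik fell in both steps, with a difference of -0.27 (-0.63 to 0.09). Pou5f1, not called in the mesoderm step, measured 7.79 and 8.71 in DE and 12.72 and 12.52 in DEP, and its steps differed by 3.56 ± 0.35 (SE) (adjusted p = 6.18e-05).

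**Figure D5:**
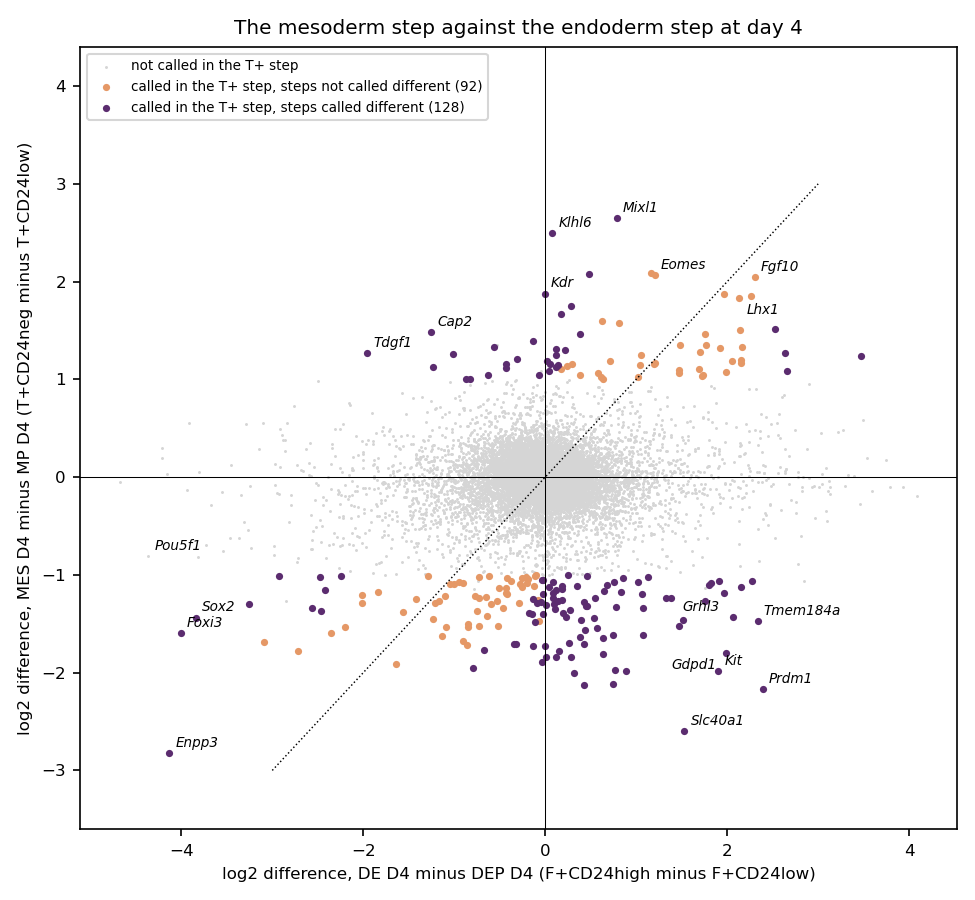
Mesoderm step (y axis, MES D4 minus MP D4, log2) against endoderm step (x axis, DE D4 minus DEP D4, log2) for 18716 genes, with the genes called in the mesoderm step in colour by whether the 2 steps were called different (128) or not (92) and equal steps as the dotted line. Fgf10 and Lhx1 lie near the line, Kdr and Klhl6 rise along the mesoderm axis alone, and Prdm1, Slc40a1 and Kit lie low on the right, with opposite signs in the 2 steps.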

How the data were processed

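Expression was measured on 16 Affymetrix Mouse Gene ST 1.0 arrays, 2 replicates for each of 8 groups. The authors normalized all arrays together by RMA (oligo 1.48.0). The deposited values are log2 levels of probe sets, so that a change of total RNA per cell is not visible and differences of weakly expressed genes are compressed. The number of arrays limits the precision. Groups were taken from the sample labels.

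The 32000 probe sets of highest mean of 35556 entered a linear model in limma 3.58.1 (R 4.3.3) with 1 mean per group, and p-values were adjusted by Benjamini-Hochberg over the 32000. The p-values reflect only the spread of 2 arrays around their group's mean, pooled over groups, which may be technical. The platform annotation gave 1 symbol to 20427 of these, several to 1400 and none to 10173. A gene was read from its brightest single-symbol probe set. The difference from the endoderm step was an interaction contrast. Promoters and their starts came from RefSeq, GRCm38.p6.

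The genes named were those the cells were sorted on, the EMT and lineage genes of the study, the 15 highest and 15 lowest called genes whose arrays did not overlap, up to 5 called members of each list in each direction, some of the defining markers, and the 5 highest and 5 lowest genes called in both contrasts. Other genes were picked with their values in view. The comparison, the 39 lists (607 genes, 577 measured) and the members were chosen with earlier results of these data known. The fits were tested on simulated data. The T gene is not reported here. Filters on low probe sets, thresholds, the treat test, eBayes options, the arrays in the fit, centring, a replicate block, the median of a gene's probe sets and leaving out single arrays were tried as alternatives.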

Additional observations from a re-analysis of the deposited data

Results flagged for a closer look

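The mesoderm step (MES minus MP) and the endoderm step (DE minus DEP) at day 4 differed by a test of the difference itself (limma, log2 change above 1 in size and adjusted p below 0.05) for 128 of the 220 genes called in the mesoderm step. The 220 had been picked on 4 of the arrays that enter this test, which favours such calls. The 5 highest and 5 lowest of these differences, mesoderm step minus endoderm step, were the following. Prdm1 had a difference of steps of -4.56 (95% interval -5.04 to -4.07), Slc40a1 -4.12 (-4.69 to -3.56) and Kit -3.89 (-4.35 to -3.43). Tmem184a followed with -3.81 (adjusted p = 7.56e-06) and Gdpd1 with -3.78 (adjusted p = 3.19e-05). On the positive side stood Tdgf1 with 3.23 (2.80 to 3.66), Cap2 with 2.74 (adjusted p = 0.000112), Foxi3 with 2.41 (adjusted p = 0.000245), Klhl6 with 2.41 (2.04 to 2.79) and Sox2 with 2.40 (adjusted p = 2.94e-05). The medium, the reporter and the direction of the CD24 gate differ between the steps together with the lineage, and their parts in these differences cannot be told apart.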

How the results depend on the processing

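Between MES and MP 69 genes were higher and 151 lower (102 and 249 probe sets). With adjusted p below 0.05 alone there were 298 and 562 genes (426 and 719 probe sets), with a log2 difference above 2 there were 6 and 6 (6 and 14), and with treat against a difference of 1 there were 8 and 9 (8 and 14). With 16000 probe sets 130 probe sets were lower. Leaving out single arrays gave 51 to 79 genes higher and 116 to 155 lower (63 to 170 and 205 to 250 probe sets, the 170 without MP replicate 1 and the 63 without MES replicate 2). A lone array was then assumed to vary like the other groups. For the difference of steps 636 genes were higher and 747 lower (999 and 934 probe sets), 1533 and 1558 with adjusted p alone (2220 and 1908), 126 and 171 above a difference of 2 (215 and 192) and 130 and 180 with treat (174 and 194). Without single arrays the ranges were 569 to 683 and 695 to 761 genes (846 to 1137 and 851 to 952 probe sets).

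Of the 220 genes called, 218 were called without the filter, 220 with trend, 219 with robust estimation, 217 with centred arrays, 215 in the 6 T+ arrays, 201 in the 4 day 4 T+ arrays and 214 with the median of a gene's probe sets. The replicate numbers do not pair the samples by any label, and the replicate 1 minus replicate 2 differences of MES and MP correlated at r = 0.20. With the replicate block 221 genes were called, 219 of the 220 among them. Of the 136 genes examined singly, 124 kept their sign under the alternatives run and 12 changed it when single arrays were left out, none of them called. Their differences then ranged from -0.23 to 0.11 for Foxa2, -0.29 to 0.018 for Snai2, -0.37 to 0.038 for Cer1, -0.073 to 0.052 for Dcn, -0.013 to 0.091 for Ddx4, -0.39 to 0.25 for Elf5, -0.20 to 0.024 for Hba-x, -0.15 to 0.058 for Hbb-bh1, -0.14 to 0.21 for Krt7, -0.17 to 0.0020 for Lsr, -0.14 to 0.10 for Nkx2-5 and -0.030 to 0.23 for Postn. Of the 94 called among the 136, 77 were not called with treat and 28 lost their call without 1 or more single arrays, at differences of 1.00 to 2.01 in size.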
